A study of Homo sapiens with 8 samples.

Results

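The genes described here encode the chains of collagens and laminins, the proteins that build the matrix around cells, and the chains of integrins, the receptors that bind it. They were chosen by name: COL, digits, A and digits for collagens, LAMA, LAMB or LAMC with a digit for laminins, and symbols that begin with ITGA or ITGB and a digit, or ITGAV, for integrins. Of 18955 genes in the deposited table, 66 had such a symbol, and 33 of these reached at least 5 CPM (UMI counts of a library scaled to a common total) in at least 1 library. A UMI is a tag that marks 1 captured RNA molecule. The 33 members were 17 collagen, 5 laminin, 6 integrin alpha and 3 integrin beta chains, together with ITGB3BP and ITGB1BP1, whose products bind integrin tails but are not integrin chains.

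The members were measured by single-cell RNA sequencing of SUM159, a line derived from a human breast tumour without hormone receptors or HER2 amplification, with mesenchymal features, whose cells all carried a lentiviral library of DNA barcodes. The 8 libraries were cells before any treatment (Pre), and cells passaged up to 18 times in DMSO vehicle (DMSO), paclitaxel at 0.6 nM (Tax), JQ1 at 100 nM (JQ1-A and JQ1-B), JQ1 with paclitaxel (JQ1+Tax), palbociclib at 160 nM (Pal) or JQ1 with palbociclib (JQ1+Pal), the drugs at the same doses in combination. JQ1 displaces BET bromodomain proteins from acetylated chromatin, palbociclib blocks the cell-cycle kinases CDK4 and CDK6, and paclitaxel is a microtubule-stabilising agent. DMSO, Tax, JQ1-A and JQ1+Tax came from 1 experiment and Pal, JQ1-B and JQ1+Pal from another that had no vehicle library. Equal numbers of cells of up to 3 parallel cultures were pooled before capture, so each library is 1 sample. No treatment had replicate pools within 1 experiment. The spread behind the p-values comes from Pre beside DMSO, which differ in passaging, and from JQ1-A beside JQ1-B, which differ in experiment. In tests without interaction terms it also holds any departure from additive drug effects.

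Collagens fold from 3 alpha chains into a triple helix. Fibrillar types such as collagen I and V form the fibrils of connective tissue, collagen IV forms the network of basement membranes, and collagen VI forms beaded filaments from COL6A1, COL6A2 and COL6A3 chains. Laminins are cross-shaped trimers of an alpha, a beta and a gamma chain that organise basement membranes. Integrins are pairs of an alpha and a beta chain in the cell membrane that bind collagens, laminins, fibronectin or vitronectin outside the cell and link them to actin inside.

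The table held 10621159 to 24240835 UMIs and 459 to 1024 cells per library. VIM, CD44, AXL and CAV1, which mark the mesenchymal state of this line, summed to 4230 to 5277 CPM in every library, most of it VIM at 3279 to 4502 CPM. In the JQ1 test described below, AXL and CD44 were higher and CAV1 was lower (edgeR adjusted p = 0.00121, 0.0145 and 0.0385). The hormone receptor genes ESR1 and PGR summed to at most 0.139 CPM. The leukocyte gene PTPRC reached at most 0.471 CPM. The endothelial genes PECAM1 and CDH5 had no row in the table. Of the fibroblast genes DCN, LUM, PDGFRA and PDGFRB, LUM reached at most 0.209 CPM and PDGFRB 5.92 CPM. DCN reached 34.4 CPM and PDGFRA 44.5 CPM, both in Pal, and both were lower with JQ1 (edgeR adjusted p = 0.00301 and 0.0364). DCN reached 5 CPM only in libraries without JQ1, so it was tested only through libraries where it was high. The 4 summed to 13.5 to 23.4 CPM in the libraries with JQ1 and to 26.1 to 84.8 CPM in those without. That sum moved with JQ1, and its part in the collagen results was not tested. The median mitochondrial share per cell was 4.69 to 7.18% in the 5 libraries with JQ1 or palbociclib and 3.72 to 3.96% in the other 3, and its part in the results was not tested either.

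The 250 bases upstream of the start were printed for 5 members on which the results below turn: the gene pair COL4A5 and COL4A6, which are transcribed away from each other from neighbouring starts on chromosome X, and the laminin chains LAMB1, LAMC1 and LAMA5, whose genes lie on separate chromosomes. Sequences are from RefSeq (GRCh38.p14), 5′ to 3′ on the strand of the gene. Capitals mark the letters CCAAT on either strand for COL4A5 and COL4A6, and GGGCGG (the GC box) on either strand for the laminin genes.
COL4A5 (chrX:108439588-108439837, plus strand): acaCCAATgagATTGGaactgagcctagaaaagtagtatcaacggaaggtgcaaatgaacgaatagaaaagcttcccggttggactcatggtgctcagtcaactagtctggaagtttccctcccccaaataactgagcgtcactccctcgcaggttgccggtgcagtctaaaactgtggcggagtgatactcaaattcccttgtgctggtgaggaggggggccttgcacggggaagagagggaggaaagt
COL4A6 (chrX:108439459-108439708, minus strand): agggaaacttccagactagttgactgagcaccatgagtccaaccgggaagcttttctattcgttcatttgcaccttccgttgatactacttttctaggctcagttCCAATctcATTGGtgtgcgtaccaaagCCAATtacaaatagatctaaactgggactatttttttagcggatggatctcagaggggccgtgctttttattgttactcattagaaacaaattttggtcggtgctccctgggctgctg
LAMB1 (chr7:108003162-108003411, minus strand): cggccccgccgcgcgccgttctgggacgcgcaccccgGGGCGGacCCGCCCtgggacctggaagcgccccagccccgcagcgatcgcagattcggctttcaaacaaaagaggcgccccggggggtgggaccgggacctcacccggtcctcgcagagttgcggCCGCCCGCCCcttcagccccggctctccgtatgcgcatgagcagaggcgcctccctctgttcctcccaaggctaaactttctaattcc
LAMC1 (chr1:183023170-183023419, plus strand): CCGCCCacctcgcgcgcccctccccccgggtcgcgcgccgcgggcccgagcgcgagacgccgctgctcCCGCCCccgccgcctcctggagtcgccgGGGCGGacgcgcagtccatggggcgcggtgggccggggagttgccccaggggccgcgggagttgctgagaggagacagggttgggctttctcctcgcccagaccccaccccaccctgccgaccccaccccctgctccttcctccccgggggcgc
LAMA5 (chr20:62367313-62367562, minus strand): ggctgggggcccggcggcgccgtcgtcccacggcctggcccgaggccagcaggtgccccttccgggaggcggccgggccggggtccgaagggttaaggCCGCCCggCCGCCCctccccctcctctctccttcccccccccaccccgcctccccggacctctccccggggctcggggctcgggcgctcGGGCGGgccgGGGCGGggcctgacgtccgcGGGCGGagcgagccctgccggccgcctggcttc
The windows of COL4A5 and COL4A6 share 121 bases, read on opposite strands. In the GENCODE annotation of GRCh37, the build of the counts, COL4A6 (chrX:107398837-107682727, minus strand) and COL4A5 (chrX:107683068-107940775, plus strand) have starts 341 bases apart. The RefSeq table held 26 of the 33 members, by the first start listed for each gene. The GC box was present in 18 of these 26 windows and in 42.3% of the windows of 27305 genes, CCAAT in 5 and 33.0%, TATAAA in 4 and 11.1%, CACGTG in 1 and 6.49%, and TGANTCA in 0 and 6.60%. The median GC content was 64.2% for the members and 58.0% for all genes. No entry was present for COL6A1, COL1A1, COL5A2, COL8A1, COL9A3, ITGA3 and ITGB4.

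The first comparison asked which chains differed with JQ1, over 4 libraries exposed and 4 not exposed. Of 30 members tested, 14 were higher with JQ1, among them LAMA5, LAMB2, COL18A1, ITGA3 and ITGB4, and 4 were lower, namely LAMB3, COL8A1, COL16A1 and ITGB3BP. The test was edgeR's quasi-likelihood test on UMIs summed per library, with palbociclib and paclitaxel exposure as further terms, 4 residual degrees of freedom and Benjamini-Hochberg adjustment over all 9288 genes with at least 5 CPM in at least 2 libraries. The share called was 18 of 30 members against 37.6% of all genes tested, with 17.8% of all genes higher and 19.7% lower. The median log2 fold change of the 30 members was 0.48, with 22 above 0, against a median of -0.0032 for all genes.

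The 14 higher calls did not separate the libraries with JQ1 from those without, because Pal was also high. In all 14, the level in Pal was above the lowest library with JQ1, and in 3 it was above every library with JQ1. The libraries with and without JQ1 did not overlap for 4 of the 30 tested members, all lower with JQ1, against 28.2% of all genes without overlap in either direction. COL16A1, 1 of these 4, reached 5 CPM only in Pre, DMSO and Pal, so its place among them follows in part from the level filter. When the 5 libraries with JQ1 or palbociclib were set against Pre, DMSO and Tax, a grouping made after the levels were seen, 14 of 30 members were higher without overlap, against 11.5% of all genes. These 14 were COL4A5, COL5A1, COL5A2, COL6A1, COL6A3, COL18A1, LAMB1, LAMB2, LAMC1, LAMA5, ITGA3, ITGB1, ITGB4 and ITGB5. ITGB4 reached 5 CPM only in the 5 libraries with JQ1 or palbociclib, so its place among them follows from the level filter. In the other direction 1 of 30 members, ITGB3BP, was lower without overlap, against 33.3% of all genes. Overlap was read on plain CPM, without the scaling that the fold changes use. COL13A1, which was not tested, was also lower without overlap, both in that grouping and with JQ1. With JQ1 it reached at most 1.94 CPM, against at least 2.78 without. It was a member only through DMSO, at 5.18 CPM, so these contrasts follow in part from its selection.

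**Figure D1:**
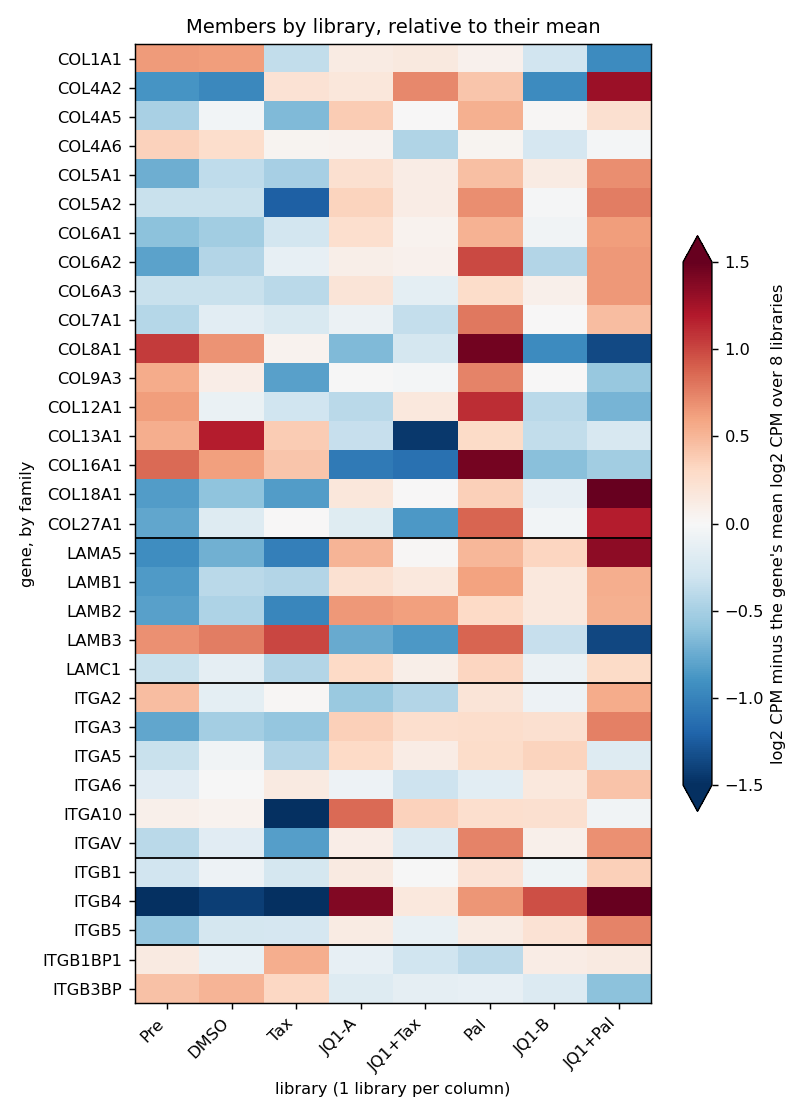
Each cell shows a gene's log2 CPM in 1 library minus its mean log2 CPM over the 8 libraries, red above and blue below the mean, with the families separated by black lines and colours capped at 1.5. Most laminin and integrin rows and the collagen V and VI rows are blue in Pre, DMSO and Tax and red in Pal and JQ1+Pal, while LAMB3, COL8A1 and COL16A1 are blue in the 4 libraries with JQ1 and red in Pal.

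Among collagens, 5 of the 14 chains tested were higher with JQ1, 2 were lower and 7 did not pass. Of all genes tested, 17.8% were higher and 19.7% lower. The higher chains were both chains of collagen V, 2 of the 3 chains of collagen VI and COL18A1. COL5A1, the main chain of the fibril-nucleating collagen V, stood at 19.1, 24.3 and 22.4 CPM in Pre, DMSO and Tax, 37.6, 34.2 and 34.4 in JQ1-A, JQ1+Tax and JQ1-B, and 43.5 and 51.4 in Pal and JQ1+Pal. Its log2 fold change with JQ1 was 0.77 ± 0.15, edgeR adjusted p = 0.00609. COL5A2, its partner, stood at 11.8, 11.8 and 6.33 CPM in Pre, DMSO and Tax, 18.7, 16.0 and 14.6 in JQ1-A, JQ1+Tax and JQ1-B, and 23.9 and 25.2 in Pal and JQ1+Pal. Tax was the lowest library for COL5A2, and the log2 fold change with JQ1 was 0.77 ± 0.22, edgeR adjusted p = 0.0251.

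In collagen VI, COL6A1 stood at 21.7, 23.3 and 27.6 CPM in Pre, DMSO and Tax, 39.8, 34.7 and 32.0 in JQ1-A, JQ1+Tax and JQ1-B, and 47.8 and 51.4 in Pal and JQ1+Pal, with a log2 fold change with JQ1 of 0.64 ± 0.15, edgeR adjusted p = 0.0137. COL6A3, the longest of the chains, stood at 78.9, 79.5 and 75.6 CPM in Pre, DMSO and Tax, 114, 90.5 and 106 in JQ1-A, JQ1+Tax and JQ1-B, and 121 and 157 in Pal and JQ1+Pal. Its change was 0.59 ± 0.09, edgeR adjusted p = 0.00306. COL6A2 stood at 15.2, 19.6 and 24.3 CPM in Pre, DMSO and Tax, 28.2, 27.8 and 19.7 in JQ1-A, JQ1+Tax and JQ1-B, and 52.8 and 41.7 in Pal and JQ1+Pal. COL6A2 was as low in JQ1-B as in DMSO and did not pass the JQ1 test, with a log2 fold change of 0.38 ± 0.20, edgeR adjusted p = 0.166. COL18A1, a basement membrane collagen whose end fragment is endostatin, stood at 5.25, 6.21 and 5.28 CPM in Pre, DMSO and Tax, 10.6, 9.48 and 8.62 in JQ1-A, JQ1+Tax and JQ1-B, and 12.0 and 34.3 in Pal and JQ1+Pal, and its log2 fold change with JQ1 was 1.18 ± 0.15, edgeR adjusted p = 0.00173. The other 7 libraries lay between 5.25 and 12.0 CPM, well under JQ1+Pal.

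The collagens lower with JQ1 were a network-forming and a fibril-associated one. COL8A1, a short-chain collagen of the vessel wall and the cornea, stood at 60.5, 46.7 and 30.2 CPM in Pre, DMSO and Tax, 18.5, 24.3 and 15.2 in JQ1-A, JQ1+Tax and JQ1-B, and 79.7 and 11.4 in Pal and JQ1+Pal. Its log2 fold change with JQ1 was -1.42 ± 0.37, edgeR adjusted p = 0.0179. COL16A1, a collagen that sits on fibrils, stood at 6.31, 5.37 and 4.68 CPM in Pre, DMSO and Tax, 1.67, 1.60 and 2.27 in JQ1-A, JQ1+Tax and JQ1-B, and 9.48 and 2.43 in Pal and JQ1+Pal. All 4 libraries with JQ1 were below the 4 without, and the log2 fold change was -1.48 ± 0.20, edgeR adjusted p = 0.00204. COL16A1 reached 5 CPM only in Pre, DMSO and Pal, all without JQ1, so it was tested only through libraries where it was high. Both genes were highest in Pal and low again in JQ1+Pal.

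COL4A5 and COL4A6, basement membrane chains, did not pass. COL4A5 stood at 8.44, 11.5 and 7.48 CPM in Pre, DMSO and Tax, 15.4, 11.9 and 12.0 in JQ1-A, JQ1+Tax and JQ1-B, and 17.1 and 14.0 in Pal and JQ1+Pal, with a log2 fold change with JQ1 of 0.51 ± 0.21, edgeR adjusted p = 0.0914. COL4A6 stood at 14.9, 14.0 and 12.0 CPM in Pre, DMSO and Tax, 12.1, 8.58 and 9.80 in JQ1-A, JQ1+Tax and JQ1-B, and 12.0 and 11.5 in Pal and JQ1+Pal, with -0.14 ± 0.12, edgeR adjusted p = 0.381. COL1A1, a chain of collagen I, ranged from 25.4 CPM in JQ1+Pal to 76.1 in Pre and did not pass (log2 fold change with JQ1 -0.29 ± 0.25, edgeR adjusted p = 0.391), and its helix partner COL1A2 stayed under 5 CPM in every library. COL7A1, the collagen of anchoring fibrils, COL12A1 and COL27A1 also did not pass, with ranges of 6.31 to 14.7, 3.18 to 11.1 and 1.53 to 6.31 CPM. COL4A2, COL9A3 and COL13A1 reached 5 CPM in 1 library each and were not tested, with highest values of 6.72, 5.01 and 5.18 CPM.

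All 5 laminin chains passed the JQ1 test, 4 higher and 1 lower, against 37.6% of all genes in either direction. LAMA5, the alpha chain of the laminins of most adult basement membranes, stood at 8.94, 10.4 and 8.36 CPM in Pre, DMSO and Tax, 24.3, 17.3 and 21.3 in JQ1-A, JQ1+Tax and JQ1-B, and 24.1 and 43.1 in Pal and JQ1+Pal. All 5 libraries with JQ1 or palbociclib were above the other 3, JQ1+Pal was the highest, and the log2 fold change with JQ1 was 1.28 ± 0.14, edgeR adjusted p = 0.00104. LAMB2 stood at 4.11, 5.27 and 3.69 CPM in Pre, DMSO and Tax, 11.4, 11.2 and 8.08 in JQ1-A, JQ1+Tax and JQ1-B, and 8.94 and 10.5 in Pal and JQ1+Pal, with 1.16 ± 0.26, edgeR adjusted p = 0.0113 for JQ1. LAMB1, the most widespread beta chain, stood at 10.4, 14.1 and 13.8 CPM in Pre, DMSO and Tax, 22.1, 21.0 and 20.9 in JQ1-A, JQ1+Tax and JQ1-B, and 28.5 and 27.5 in Pal and JQ1+Pal. Its change with JQ1 was 0.73 ± 0.19, edgeR adjusted p = 0.0203. LAMC1, the gamma chain that pairs with LAMB1 and LAMB2, stood at 14.8, 16.9 and 13.6 CPM in Pre, DMSO and Tax, 22.9, 19.7 and 17.5 in JQ1-A, JQ1+Tax and JQ1-B, and 23.3 and 22.7 in Pal and JQ1+Pal, with 0.49 ± 0.16, edgeR adjusted p = 0.0403.

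LAMB3, the beta chain of the epithelial laminin that anchors keratinocytes, went the other way. It stood at 21.6, 22.8 and 26.8 CPM in Pre, DMSO and Tax, 7.91, 7.39 and 10.6 in JQ1-A, JQ1+Tax and JQ1-B, and 24.5 and 5.20 in Pal and JQ1+Pal. The 4 libraries with JQ1 lay between 5.20 and 10.6 CPM and the 4 without between 21.6 and 26.8, with a log2 fold change of -1.45 ± 0.20, edgeR adjusted p = 0.00219. LAMA3, an alpha chain that joins LAMB3, stayed under 5 CPM in every library, at 1.61 to 4.11 CPM, and was not tested.

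**Figure D2:**
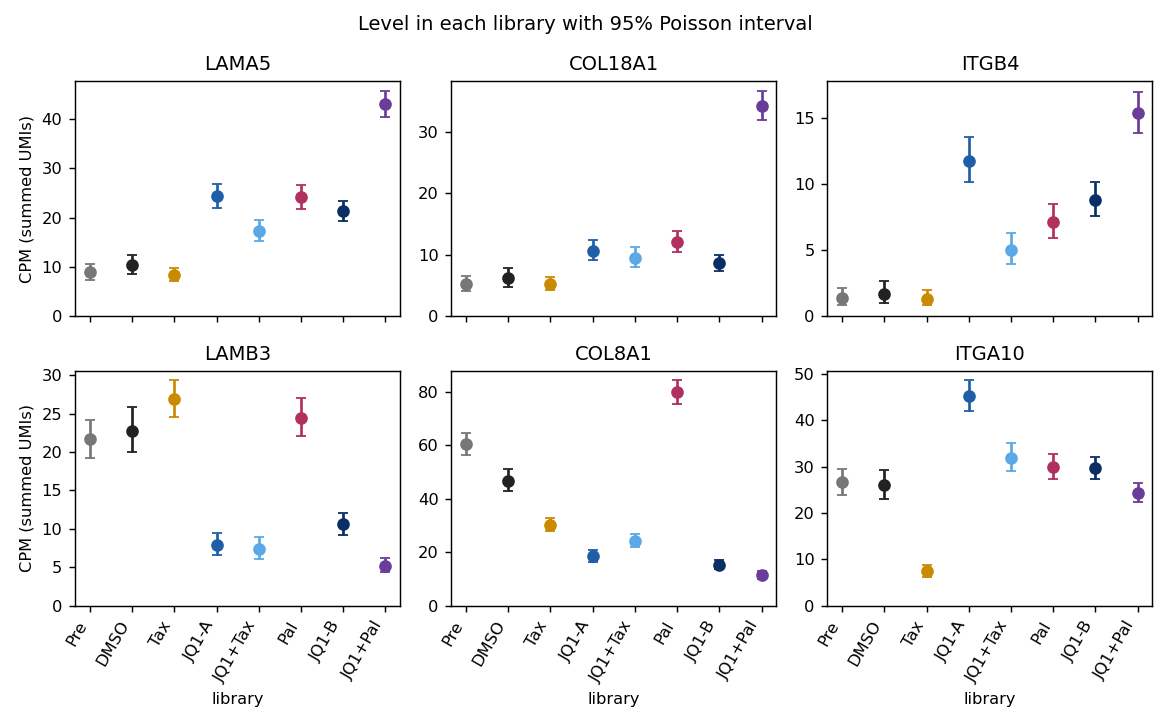
Points are CPM of 6 members in each of the 8 libraries and bars are 95% exact Poisson intervals of the summed UMIs, which cover counting error only. LAMA5, COL18A1 and ITGB4 are higher in the 5 libraries with JQ1 or palbociclib than in Pre, DMSO and Tax, LAMB3 and COL8A1 are low in the 4 libraries with JQ1 and high in Pal, and ITGA10 is lowest in Tax.

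Of 9 integrin chains tested, 5 were higher with JQ1, 0 were lower and 4 did not pass, against 17.8% of all genes higher and 19.7% lower. ITGB4, whose product pairs with the ITGA6 chain in the laminin receptor of hemidesmosomes, stood at 1.35, 1.69 and 1.32 CPM in Pre, DMSO and Tax, 11.8, 5.02 and 8.82 in JQ1-A, JQ1+Tax and JQ1-B, and 7.13 and 15.4 in Pal and JQ1+Pal. The counts behind its low values were 18 to 24 UMIs, and the log2 fold change with JQ1 was 2.21 ± 0.32, edgeR adjusted p = 0.00235. ITGB4 reached 5 CPM only in the 5 libraries with JQ1 or palbociclib, so it was tested only through them. ITGA3, the alpha chain of a laminin receptor with ITGB1, stood at 59.9, 72.1 and 69.1 CPM in Pre, DMSO and Tax, 132, 123 and 122 in JQ1-A, JQ1+Tax and JQ1-B, and 124 and 174 in Pal and JQ1+Pal. Its 5 libraries with JQ1 or palbociclib lay between 122 and 174 CPM and the other 3 between 59.9 and 72.1, with a change of 1.0 ± 0.13, edgeR adjusted p = 0.0018. ITGB1, the beta chain shared by most matrix receptors, stood at 132, 153 and 134 CPM in Pre, DMSO and Tax, 177, 159 and 154 in JQ1-A, JQ1+Tax and JQ1-B, and 186 and 205 in Pal and JQ1+Pal, with 0.40 ± 0.10, edgeR adjusted p = 0.0173.

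ITGAV and ITGB5 together form a vitronectin receptor. ITGAV stood at 23.2, 27.2 and 17.3 CPM in Pre, DMSO and Tax, 32.9, 26.6 and 32.5 in JQ1-A, JQ1+Tax and JQ1-B, and 51.3 and 49.4 in Pal and JQ1+Pal, with a log2 fold change with JQ1 of 0.52 ± 0.15, edgeR adjusted p = 0.0272. ITGB5 stood at 26.3, 32.7 and 33.2 CPM in Pre, DMSO and Tax, 43.0, 36.5 and 45.6 in JQ1-A, JQ1+Tax and JQ1-B, and 43.0 and 65.7 in Pal and JQ1+Pal, with 0.68 ± 0.12, edgeR adjusted p = 0.00415. ITGAV was highest in Pal and JQ1+Pal, whereas ITGB5 was as high in JQ1-A and JQ1-B as in Pal.

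The integrin chains that did not pass for JQ1 were ITGA2, ITGA5, ITGA6 and ITGA10. ITGA10, a collagen receptor chain, stood at 26.6, 26.1 and 7.43 CPM in Pre, DMSO and Tax, 45.2, 31.9 and 29.7 in JQ1-A, JQ1+Tax and JQ1-B, and 29.9 and 24.3 in Pal and JQ1+Pal. Tax was far below the other 7 libraries, and the log2 fold change with JQ1 was 0.86 ± 0.36, edgeR adjusted p = 0.0896. ITGA5, of the fibronectin receptor, stood at 45.7, 55.6 and 42.6 CPM in Pre, DMSO and Tax, 71.1, 62.1 and 72.4 in JQ1-A, JQ1+Tax and JQ1-B, and 70.0 and 50.4 in Pal and JQ1+Pal, with 0.47 ± 0.20, edgeR adjusted p = 0.101. ITGA2, the other collagen receptor chain, stood at 32.9, 21.6 and 24.2 CPM in Pre, DMSO and Tax, 16.2, 17.6 and 22.6 in JQ1-A, JQ1+Tax and JQ1-B, and 27.4 and 35.1 in Pal and JQ1+Pal, with -0.07 ± 0.19, edgeR adjusted p = 0.785. ITGA6 stood at 23.8, 26.5 and 29.3 CPM in Pre, DMSO and Tax, 25.2, 21.5 and 29.6 in JQ1-A, JQ1+Tax and JQ1-B, and 23.9 and 35.7 in Pal and JQ1+Pal, with 0.29 ± 0.14, edgeR adjusted p = 0.129. Of the 2 members that are not chains, ITGB3BP, also known as a centromere protein, stood at 52.9, 55.6 and 48.6 CPM in Pre, DMSO and Tax, 34.2, 35.7 and 33.8 in JQ1-A, JQ1+Tax and JQ1-B, and 35.8 and 25.6 in Pal and JQ1+Pal, with -0.37 ± 0.10, edgeR adjusted p = 0.018. ITGB1BP1 ranged from 255 to 487 CPM and did not pass.

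The JQ1 calls were also read within experiments and matched pairs. In the JQ1+paclitaxel experiment alone, with JQ1 and paclitaxel as terms, edgeR called 19 members and 30.4% of all genes, on 1 residual degree of freedom. ITGB3BP and COL8A1 were not among them. The JQ1+palbociclib experiment had no vehicle library, so there the level in JQ1+Pal was divided by that in Pal. The 14 higher members were all above 1 for JQ1-A over DMSO and for JQ1+Tax over Tax, and 11 were above 1 for JQ1+Pal over Pal. LAMC1, LAMB1 and ITGAV, with ratios of 0.976, 0.966 and 0.964, were the exceptions. The 4 lower members were below 1 in all 3 pairs. With the 3 pairs fitted as blocks, edgeR called 6 members and 3.94% of all genes, on 2 residual degrees of freedom. Without Pre the full model called 10 members and 21.4% of all genes, and without JQ1-A 11 and 19.0%. LAMA5, COL18A1, ITGA3, ITGB4, LAMB3 and COL16A1 kept their call in every alternative that included them.

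The second comparison set Pal and JQ1+Pal against the 6 libraries without palbociclib. LAMA5 and COL18A1 were higher, and no member was lower. LAMA5 had a log2 fold change of 1.16 ± 0.16, edgeR adjusted p = 0.0371, and COL18A1 one of 1.53 ± 0.17, edgeR adjusted p = 0.029. The 2 called members of 30 stand against 0.28% of all genes called, and 17 of the 30 were at an unadjusted p under 0.05 (22.1% of all genes). Both palbociclib libraries came from the experiment without a vehicle. With the experiment as a term no member was called, at adjusted p = 0.676 for LAMA5 and 0.533 for COL18A1, and without Pre, DMSO, JQ1-A or JQ1-B in turn neither was called. Without JQ1+Pal the model called 15 members and 10.2% of all genes. Without Tax it called 13 and 5.23%, without JQ1+Tax 13 and 5.37%, and without Pal 1, COL18A1, and 0.109%. DESeq2 called 15 members and 5.54% of all genes.

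Most estimates for palbociclib were above 0 without passing the threshold. The median log2 fold change of the members was 0.59, with 24 of 30 above 0, against 0.01 for all genes. For 11 members both palbociclib libraries were above the other 6, against 9.3% of all genes. COL27A1, among these 11, reached 5 CPM only in Pal and JQ1+Pal, so it was tested only through the libraries where it was high. COL6A2 had a log2 fold change of 1.27 ± 0.24, edgeR adjusted p = 0.0712. COL27A1, a fibrillar collagen of cartilage, had 1.34 ± 0.28, edgeR adjusted p = 0.0749, and ITGAV 0.88 ± 0.18, edgeR adjusted p = 0.0716. COL6A2, COL6A1 and COL18A1 all lie near the end of the long arm of chromosome 21, COL18A1 at chr21:46825080-46933634, COL6A1 at chr21:47401684-47424964 and COL6A2 at chr21:47518026-47552762, all on the plus strand (GRCh37). The median log2 ratio, with 1 CPM added, of the 90 tested genes of that chromosome was -0.08 for Pal over DMSO, where all genes had -0.12, and 0.17 for JQ1+Pal over JQ1-B, where all genes had 0.03. In the annotation COL18A1 overlaps SLC19A1, LAMA5 overlaps ADRM1, ITGB4 overlaps GALK1 and LAMB1 overlaps DLD, all on the opposite strand. The sources used here do not say whether reads were counted by strand.

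**Figure D3:**
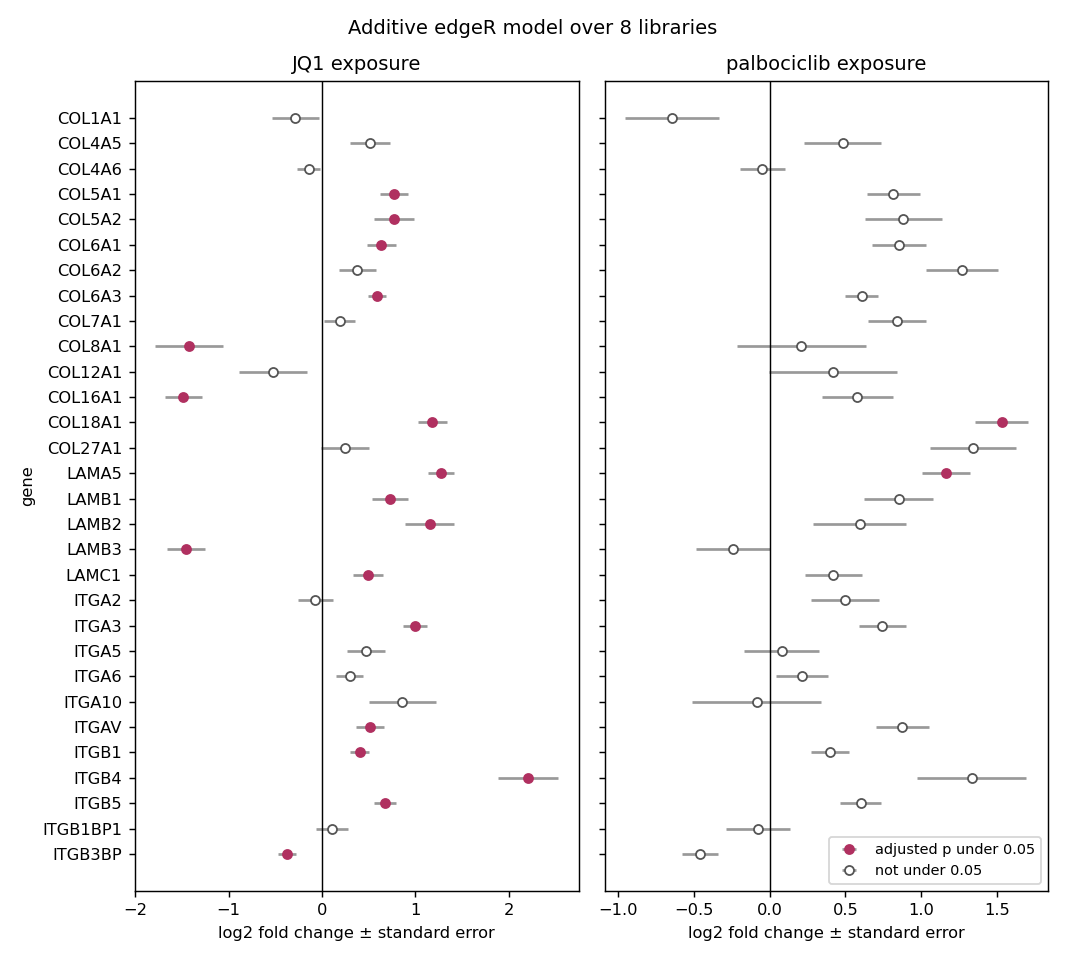
Points are log2 fold changes of the 30 tested members for JQ1 (left) and palbociclib (right) from the additive edgeR model over 8 libraries, with bars for the standard error and filled points for adjusted p under 0.05. Collagen V, collagen VI, LAMA5, LAMB1, LAMB2, ITGA3, ITGAV and ITGB4 lie right of 0 in both panels, and LAMB3, COL8A1 and COL16A1 lie below -1.4 in the JQ1 panel and not in the palbociclib panel.

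For paclitaxel, Tax and JQ1+Tax against the other 6 libraries, edgeR called 0 of 30 members and 0% of all genes. No member had an unadjusted p under 0.05 (4.25% of all genes), and DESeq2 called 0 members and 0.0969% of all genes. The median log2 fold change was -0.045. ITGA10 had -0.80 ± 0.44, edgeR adjusted p = 0.885 and COL5A2 -0.38 ± 0.27, edgeR adjusted p = 0.885.

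Whether the 2 partner drugs changed the JQ1 difference was asked in a model with both interaction terms, which left 2 residual degrees of freedom. For JQ1 by palbociclib edgeR called 0 members, with 0.0108% of all genes called. In this term 16 of 30 members had an unadjusted p under 0.05, against 1580 of 9288 genes, and 24 of 30 estimates were below 0, against 51.1% of all genes. ITGB4, at -1.84 ± 0.40, edgeR adjusted p = 0.114, and COL8A1, at -1.30 ± 0.28, edgeR adjusted p = 0.114, are examples of such estimates. For JQ1 by paclitaxel edgeR called 0 members, with 0.388% of all genes called. An unadjusted p under 0.05 was found for 7 of 30 members (23.3%) and 1577 of 9288 genes, a share near that of all genes. The collagens COL8A1 (1.40 ± 0.28, edgeR adjusted p = 0.0678) and COL1A1 (1.26 ± 0.26, edgeR adjusted p = 0.0682) and the integrin ITGA10 (1.64 ± 0.35, edgeR adjusted p = 0.0825) had positive estimates. For JQ1 by palbociclib DESeq2 called 1 member and 0.366% of all genes, and edgeR called 14 members and 12.1% without DMSO and 8 and 6.48% without Pre. For JQ1 by paclitaxel DESeq2 called 3 members and 0.807% of all genes, and edgeR called 6 and 6.70% without DMSO and 5 and 12.4% without Pre.

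Pairs of single libraries allow no test and were read by the ratio of CPM, with a member counted where it passed 2-fold and had at least 5 CPM in the higher library. Pal over DMSO, which came from different experiments, had 8 of 32 members higher and 0 lower, against 5.28% of all genes past 2-fold in either direction. They were ITGB4 (4.21-fold, 95% interval 2.55 to 7.34), COL6A2 (2.70, 2.32 to 3.15), LAMA5 (2.33, 1.88 to 2.90), COL12A1, COL27A1, COL6A1, COL5A2 and LAMB1. JQ1+Pal over JQ1-B, within 1 experiment, had 5 of 29 higher and 1 lower, against 1.82%. COL4A2 (4.71-fold, 3.16 to 7.25), COL18A1 (3.98, 3.37 to 4.71), COL27A1 (2.33, 1.70 to 3.23), COL6A2 (2.12, 1.89 to 2.39) and LAMA5 (2.03, 1.81 to 2.27) were higher and LAMB3 (0.491, 0.391 to 0.614) was lower. COL6A2, LAMA5 and COL27A1 passed 2-fold in both pairs. COL27A1 reached 5 CPM only in Pal and JQ1+Pal, COL4A2 only in JQ1+Pal, and ITGB4 only in libraries with JQ1 or palbociclib. They thus became members only through libraries where they were high, and their ratios follow in part from that selection.

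Tax over DMSO had 0 of 28 members higher and 2 lower, against 4.33% of all genes. ITGA10 was at 7.43 CPM against 26.1, a ratio of 0.285 (0.230 to 0.351), and COL1A1 at 37.9 CPM against 75.8, a ratio of 0.499 (0.450 to 0.554). In JQ1+Tax over JQ1-A, 0 of 28 members were higher and 1 was lower, against 0.839%, namely ITGB4 at 0.425 (0.320 to 0.561). Libraries under the same or no drug gave a scale for these counts. DMSO over Pre had 0 of 29 members past 2-fold, against 1.28%, and JQ1-B over JQ1-A had 0 of 27, against 0.46%. Intervals cover counting error only.

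How constant the ratio of chains stayed was described by the SD over the 8 libraries of the log2 ratio of 2 members, computed for the 25 members with at least 5 CPM in every library. A small SD means a ratio that stayed near constant, which also holds for chains that each varied little. Among their 300 pairs were 15 whose chains join in 1 protein. The median SD was 0.337 for these 15 and 0.554 for all 300, and 13 of the 15 were under the median of all pairs. The pairs share chains, so they are not independent and no test was made. Ratios are compared between libraries only, since capture at the 3′ end does not give levels per transcript length.

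The tightest of the partner pairs was COL6A3 with COL6A1, with an SD of 0.190 (rank 10 of 300), although COL6A1 alone had an SD of 0.457. COL6A1 with COL6A2 followed at 0.254 (rank 27), then ITGA6 with ITGB1 at 0.269, ITGB1 with ITGA5 at 0.276 and LAMC1 with LAMB1 at 0.281. The integrin chains varied little on their own, with SDs of log2 CPM of 0.232 for ITGA6, 0.224 for ITGB1 and 0.301 for ITGA5, so the ratio of ITGA6 to ITGB1 varied more than either chain. The ratio of COL6A1 to COL6A2 was lowest in Pal, at 0.905 (0.821 to 0.998), and highest in JQ1-B, at 1.63 (1.44 to 1.85). The 9 pairs tighter than COL6A3 with COL6A1 joined chains of different proteins. LAMB1 with COL5A1 was the tightest of all, with an SD of 0.0952, and LAMC1 with ITGB1 followed at 0.116. The lowest ranks were LAMB3 with COL18A1, at 1.69, and LAMB3 with LAMA5, at 1.66.

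Some partners parted. COL4A6 and COL4A5, whose starts are neighbours, had an SD of 0.534 (rank 141). The ratio of COL4A6 to COL4A5 was 1.76 (1.40 to 2.23) in Pre, 1.22 (0.955 to 1.56) in DMSO and 1.61 (1.29 to 2.01) in Tax. In the libraries with JQ1 or palbociclib it was 0.784 (0.647 to 0.949) in JQ1-A, 0.719 (0.566 to 0.912) in JQ1+Tax, 0.703 (0.584 to 0.846) in Pal, 0.819 (0.676 to 0.992) in JQ1-B and 0.821 (0.698 to 0.964) in JQ1+Pal. The 5 libraries with either drug were thus all below the other 3, a contrast picked after the ratios were seen. COL4A5 varied more over libraries than COL4A6, with SDs of log2 CPM of 0.41 and 0.26. LAMC1 with LAMA5 had an SD of 0.583, with ratios from 1.65 in Pre to 0.526 in JQ1+Pal, and ITGA10 with ITGB1 one of 0.682, through the low ITGA10 in Tax. With 1 CPM added, so that chains with lower values could enter, ITGA6 with ITGB4 had the widest SD of 17 partner pairs, at 1.08, with ITGA6 over ITGB4 between 2.05 in JQ1-A and 13.1 in Tax.

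**Figure D4:**
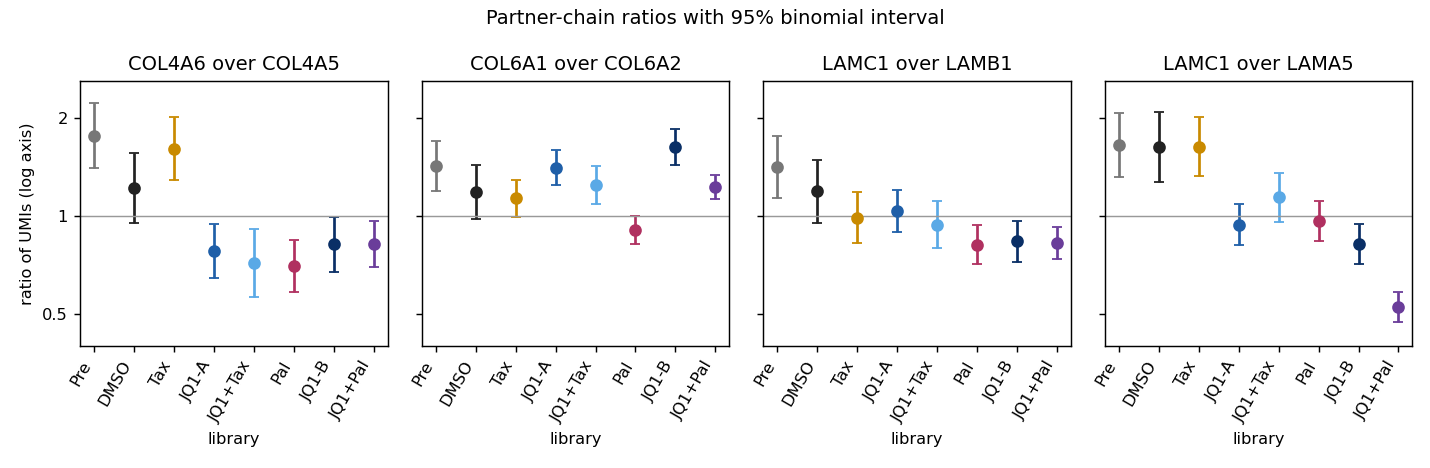
Points are the ratio of UMIs of 2 partner chains in each library on a log axis, with 95% exact binomial intervals that cover counting error only. COL4A6 over COL4A5 lies above 1 in Pre, DMSO and Tax and below 1 in the 5 libraries with JQ1 or palbociclib, COL6A1 over COL6A2 lies above 1 in all libraries but Pal, LAMC1 over LAMB1 is highest in Pre at 1.41, and LAMC1 over LAMA5 is lowest in JQ1+Pal at 0.526.

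**Figure D5:**
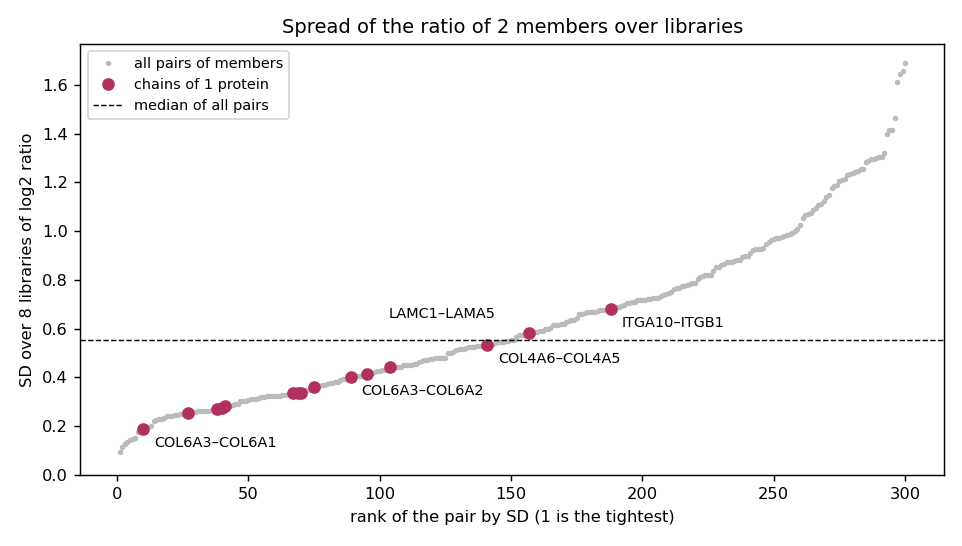
All 300 pairs of 25 members are ordered by the SD over 8 libraries of their log2 ratio (grey), with the 15 pairs of chains of 1 protein in red and the median of all pairs, 0.554, as a dashed line. Of the red points 13 lie under the line, and LAMC1–LAMA5 and ITGA10–ITGB1 lie above it.

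Within libraries, cells were thinned to 10000 UMIs each, which left out 210 of 5738 cells and partner chains were read cell by cell. COL6A2 had more UMIs in cells with a COL6A1 UMI than in cells without one in all 8 libraries, with ratios from 1.15 to 3.57 (median 2.59) and a 95% interval above 1 in 7. For COL6A1 given COL6A3 the ratios were 1.12 to 1.87 (median 1.42, interval above 1 in 6 libraries), and for COL6A2 given COL6A3 0.978 to 1.98 (median 1.69, above 1 in 6). COL5A1 given COL5A2 had a median ratio of 1.43, with the interval above 1 in 4 libraries. LAMA5 given LAMC1 had a median of 1.04 and ranged from 0.290 to 2.19, and COL4A5 given COL4A6 1.18 (0.451 to 1.89), with few UMIs per cell for these chains. The intervals treat UMIs as independent and cover counting error only.

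The share of thinned cells with a UMI followed the levels. For LAMA5 it was 8.01 to 11.8% in Pre, DMSO and Tax and 15.5 to 34.6% in the other 5 libraries. ITGB4 was seen in 1.09 to 1.34% of cells in Pre, DMSO and Tax and in 4.42 to 13.4% elsewhere, and COL18A1 in 5.84 to 11.9% of cells in 7 libraries but in 27.8% in JQ1+Pal. LAMB3 was seen in 19.4 to 23.0% of cells without JQ1 and in 5.64 to 8.87% with it. Before thinning the shares were larger, 17.2 to 58.6% for LAMA5 and 10.6 to 41.9% for LAMB3. All cells are of 1 line, so no cell type that should lack these genes was there to give the share that free RNA would produce.

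COL1A1 was the member with the most variance between cells for its level. The variance of its UMIs over their mean, which is 1 for counting error alone, was 2.19 to 3.09, the highest of the 33 members in each of the 8 libraries. ITGA10 followed by its median, with a range of 1.16 to 2.09, and COL4A5 was near 1 throughout, at 0.956 to 1.11. COL1A1 was seen in 44.5% of cells in Pre (40.4 to 48.6, exact binomial) and in 18.7% in JQ1+Pal (16.3 to 21.3), and the tenth of cells with the most COL1A1 held 48.8% of its UMIs in Pre and 72.2% in Tax. Members with few UMIs had larger such shares, 100% in all 8 libraries for COL16A1. The most COL1A1 UMIs in 1 cell after thinning were 15.

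Genes that act on these proteins were read from 4 lists with the same fit. Of 18 tested genes for collagen modification and secretion, 2 were higher and 1 lower with JQ1. CRTAP, a part of the prolyl 3-hydroxylation complex, was higher (log2 fold change 0.62 ± 0.10, edgeR adjusted p = 0.00328), as was the lysyl hydroxylase PLOD1 (0.51 ± 0.12, edgeR adjusted p = 0.0144), and PCOLCE, an enhancer of procollagen C-proteinase, was lower (-0.92 ± 0.22, edgeR adjusted p = 0.0135). Of 8 genes for collagen crosslinking and fibril assembly, 4 were higher and 3 lower. The fibrillin gene FBN1 (1.25 ± 0.17, edgeR adjusted p = 0.00213) and the lysyl oxidase LOXL2 (0.57 ± 0.11, edgeR adjusted p = 0.00632) were among the higher ones. DCN, for the fibril-binding proteoglycan decorin, was lower, at 7.81 to 34.4 CPM without JQ1 and 1.07 to 2.41 with it (-3.25 ± 0.51, edgeR adjusted p = 0.00301). DCN reached 5 CPM only in libraries without JQ1, so it was tested only through libraries where it was high.

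Of 5 tested basement membrane partners, 4 were higher and 0 lower with JQ1. DAG1, for the laminin receptor dystroglycan, had a log2 fold change of 0.85 ± 0.10 (edgeR adjusted p = 0.00121), AGRN, for agrin, 1.06 ± 0.20 (edgeR adjusted p = 0.00551) and HSPG2, for perlecan, 1.29 ± 0.31 (edgeR adjusted p = 0.0139). HSPG2 reached 5 CPM only in JQ1-A, JQ1+Tax, Pal and JQ1+Pal, so it was tested only through libraries where it was high. AGRN stood at 10.5 to 10.6 CPM in Pre, DMSO and Tax and at 21.7 to 42.5 CPM in the other 5 libraries. Of 19 genes of the integrin adhesion machinery, 8 were higher and 2 lower. The talin gene TLN2 (1.22 ± 0.16, edgeR adjusted p = 0.00167) and the actinin gene ACTN4 (0.51 ± 0.09, edgeR adjusted p = 0.00413) were higher, and the kindlin gene FERMT1 was lower (-1.05 ± 0.19, edgeR adjusted p = 0.00523). TLN2 reached 5 CPM only in the 5 libraries with JQ1 or palbociclib, so it was tested only through them. In each of the 4 lists, edgeR called 0 genes for palbociclib and 0 for paclitaxel. Of all genes, 0.28% were called for palbociclib and 0% for paclitaxel, so these counts of 0 are near the shares of all genes. For palbociclib the median log2 fold change was 0.21 for modification and secretion and 0.51 for crosslinking and fibril assembly. It was 0.50 for basement membrane partners, 0.07 for adhesion machinery and 0.01 for all genes. The JQ1 counts of the lists stand beside the 37.6% of all genes called for JQ1.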

How the data were processed

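Single-cell RNA-seq libraries were prepared with 10x Genomics 3′ chemistry. The deposited table holds whole-number UMI counts for each gene in each cell. The authors made them with Cell Ranger on the hg19 build and kept genes seen in a minimum number of cells. Their cell filter (1 to 15% mitochondrial UMIs, at least 2000 genes) was passed by 5575 of 5738 cells (97.2%) and was used as an alternative. A cell's library was taken from the deposited metadata. Among the cells, 13 barcodes occurred in more than 1 library (26 cells). Doublets were not called, since all cells are of 1 line.

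UMIs were summed per library, because cells are not replicates. Exposures were tested with edgeR 4.0.16 (TMM, quasi-likelihood, Benjamini-Hochberg, R 4.3.3). Levels, ratios and overlap are on plain CPM without TMM factors, which were 0.902 to 0.965 with JQ1 and 1.00 to 1.10 without. Standard errors are the fold change divided by the square root of F and are approximate. DESeq2 1.42.0 was an alternative, as were other filters, cell subsets and leaving out each library. Depth per library is given above, and 95% Poisson, binomial and Clopper-Pearson intervals (scipy 1.17.1) cover counting error only. Code was tested on simulated counts. Values were given in all 8 libraries for called members, for chains of partner pairs with at least 5 CPM in every library and for the 5 members with the widest range among those reaching 20 CPM. For pathway lists, the 3 called genes with the smallest p were named. Members, lists and rules were chosen with earlier results of these data known. Overlapping genes were read from GENCODE v44lift37. Bulk RNA, exome and barcode data were not used here.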

Additional observations from a re-analysis of the deposited data

Results flagged for a closer look

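For each member, log2 CPM was searched in the 4 libraries with JQ1 and in the 4 without. A library was flagged when its gap to its nearest neighbour, divided by the range of the group, passed Dixon's 95% critical value. In 66 groups chance alone gives about 3.3 such libraries, and 7 were found.

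Among the libraries with JQ1, JQ1+Pal was the farthest for 3 members. COL18A1 stood at 34.3 CPM there against 10.6 in the next library (ratio of gap to range 0.848), ITGB3BP at 25.6 against 33.8 (0.840), and COL9A3 at 2.02 against 2.93 (0.935). COL13A1 was lowest in JQ1+Tax, at 0.837 CPM against 1.77 (0.894). COL9A3 and COL13A1 rest on 12 to 61 UMIs a library in these groups.

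Among the libraries without JQ1, Pal was the farthest for 2 members. ITGB4 stood at 7.13 CPM in Pal against 1.69 in the next library (0.852), and COL6A3 at 121 against 79.5 (0.895). Both were also high in the libraries with JQ1. ITGA10 was lowest in Tax, at 7.43 CPM against 26.1 (0.902), while JQ1+Tax held 31.9 CPM.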

How the results depend on the processing

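The count of members called for paclitaxel was 0 in all 15 alternatives. For JQ1 (18 members called) the count was 6 with the 3 pairs matched by partner drug as blocks and 10 to 22 with 1 library left out, 10 without Pre and 11 without JQ1-A, and within 1.5 times of 18 in the other alternatives. For palbociclib (2 called) it was 15 by DESeq2, 9 with no low-count filter, 0 with the experiment as a term and 0 to 15 with 1 library left out. For JQ1 by palbociclib (0 called) it was 1 by DESeq2, 8 with no low-count filter and 0 to 14 with 1 library left out. For JQ1 by paclitaxel (0 called) it was 3 by DESeq2, 4 with no low-count filter, 1 without cells above the 95th UMI percentile and 0 to 6 with 1 library left out. The share of all genes called moved too. For palbociclib it was 0.28% in the main fit, 5.54% by DESeq2, 1.08% with no low-count filter and 0% with the experiment as a term. With no low-count filter it was 3.63% for JQ1 by palbociclib and 3.82% for JQ1 by paclitaxel. DESeq2 gave 0.366% and 0.807% for these interactions. Without cells above the 95th UMI percentile it was 0.859% for JQ1 by paclitaxel. The cause of these changes was not tested. Fits with fewer libraries or pairs have fewer degrees of freedom, and counts both fell and rose among them. No called member changed sign in any alternative. For single members, 256 of 305 JQ1 values kept their side of the threshold and 49 lost it, and 11 of 30 palbociclib values lost it. The fit within the JQ1+paclitaxel experiment was chosen after the data were seen. Shares of cells depend on depth, and 259 of 264 shares moved without thinning. The labels give no replicate numbers shared across treatments, so the blocks are pairs matched by partner drug and not by culture. With 1 or 2 libraries a treatment, the spread between cultures was not measured.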
